A study of Bubalus bubalis with 6 samples.

Results

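Actin cytoskeleton genes in buffalo sperm DNA were followed probe by probe, using every non-control array probe whose gene name was exactly VCL, FSCN1, ACTN1 or ACTG1. These 4 genes, of 7932 named on the array, carried 21 of its 177440 probes: 7 for VCL, 3 for FSCN1, 7 for ACTN1 and 4 for ACTG1. DNA from frozen semen of 3 high-fertile bulls (HF2, HF3 and HF5) and 3 subfertile bulls (SF1, SF4 and SF5) of Bubalus bubalis was sonicated, and its methylated part was captured with a 5-methylcytosine antibody (meDIP). Each array compared 1 bull's immunoprecipitated (IP) DNA, in the Cy5 channel, with the same bull's input DNA, in the Cy3 channel, and no dyes were swapped. The labels give no age, no definition of the fertility classes and no count of ejaculates, so n is the number of bulls. The measure is log2(IP/input), centred on each array's median: a higher value means that more of the DNA at a probe was bound by the antibody, and it is not a share of methylated cytosines.

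Actin is a globular protein that assembles into filaments, and accessory proteins cross-link, bundle and anchor those filaments. ACTG1 encodes cytoplasmic gamma-actin, a filament subunit. ACTN1 encodes alpha-actinin-1, which cross-links filaments, and FSCN1 encodes fascin, which packs them into tight bundles. VCL encodes vinculin, which ties filaments to membrane adhesion sites. In the testis, actin bundles line the junctions between Sertoli cells and elongating spermatids, and in sperm actin assembles and disassembles around capacitation and the acrosome reaction. The array measured DNA, so none of these values is a level of RNA or protein.

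The genes were chosen by name with results of these data known, and it is not recorded which measured values they were selected on, so every difference between groups or sessions counts as used. Levels and differences of the 4 genes are therefore given as a description. Counts of their probes called in the fit over all tested probes are printed only beside the share of all probes called, and nothing is read from them. The number of arrays limits their precision.

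Of the 21 probes, 15 had input signal well above background on all 6 arrays and no uniformity flag, which is the condition for being tested here. All 3 FSCN1 probes met it, as did 6 of 7 for ACTN1, 3 of 4 for ACTG1 and 3 of 7 for VCL. Probes are numbered along the chromosome. VCL probes 1 and 2 and ACTG1 probe 3 were not well above background in either channel on any array, and VCL probe 7 was so only in the input of SF1. ACTN1 probe 7 had measurable input in HF5, SF1 and SF5 only. VCL probe 5 missed the condition on the input of a single bull, HF3, and its values are given below.

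The probe sequences show how unlike the measured stretches are, from no CpG to 6 CpGs in 60 bases. They were read from the scanner files, for each gene the tested probes with the highest and the lowest mean and with the largest difference between groups, with every CpG in capitals. Coordinates are those of the files; chromosome numbers up to 28 follow the cattle karyotype, the series text names Bos taurus, and no build is given in the sources used here. The files give no exon, intron or promoter class, so none is stated.
ACTG1 probe 1 (chr19:52746086-52746145): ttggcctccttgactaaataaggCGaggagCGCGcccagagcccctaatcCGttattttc
ACTG1 probe 4 (chr19:52751159-52751218): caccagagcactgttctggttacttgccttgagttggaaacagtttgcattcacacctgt
ACTN1 probe 1 (chr10:82999454-82999513): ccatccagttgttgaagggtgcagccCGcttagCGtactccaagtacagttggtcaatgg
ACTN1 probe 4 (chr10:83088646-83088705): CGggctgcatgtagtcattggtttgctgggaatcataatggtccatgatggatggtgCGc
ACTN1 probe 6 (chr10:83089405-83089464): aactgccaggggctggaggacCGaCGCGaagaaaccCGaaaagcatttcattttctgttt
FSCN1 probe 2 (chr25:40587286-40587345): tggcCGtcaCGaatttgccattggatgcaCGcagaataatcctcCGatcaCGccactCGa
FSCN1 probe 3 (chr25:40587306-40587365): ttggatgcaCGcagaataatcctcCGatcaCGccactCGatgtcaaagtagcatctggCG
VCL probe 3 (chr28:29349533-29349592): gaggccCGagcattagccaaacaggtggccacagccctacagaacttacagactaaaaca
VCL probe 6 (chr28:29372637-29372696): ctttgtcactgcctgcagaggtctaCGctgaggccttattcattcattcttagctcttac

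The FSCN1 probes overlap within 100 bp, neighbouring ones in most of their letters, so they are repeated readings of a single locus. The VCL probes are spread over 117149 bp, those of ACTN1 over 94076 bp and those of ACTG1 over 5133 bp. No probe elsewhere on the array shared a run of 20 bases with any of the 21. Related gene copies in the genome, which actin genes have, were not examined.

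Scan dates in the file headers place HF2, HF3 and SF4 in a first session and HF5, SF1 and SF5 on later dates, which are grouped here as the later session. That session joins 2 scan dates: HF5 and SF5 share a date and slide 1, while SF1 was scanned on a date of its own, on slide 2 with the 3 first-session bulls, and its header names another extraction protocol. Input was well above background at 69.0% to 74.7% of probes in the first session and at 82.4% to 95.5% in the later one, and IP at 37.6% to 58.6% against 76.5% to 85.2%. Later minus first, with the group as a term, limma called 8941 of 110686 tested probes (8.08%), and 80.5% of those were higher in the later session. Without HF5, SF1, SF4 or SF5 limma called 0, with 18115, 24324, 23266 and 23826 probes at an unadjusted p under 0.05, whereas it called 20318 without HF2. A median over all tested probes of 0.27 later minus first moved to 0.03 when each array was centred on the tested probes, where 2934 probes were called and 38.0% of them were higher.

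No difference between high-fertile and subfertile bulls was called at any of the 15 probes, as at none of the 110686 tested (0.0%; 2036 at an unadjusted p under 0.05, limma). High-fertile bulls had the higher mean at 8 probes and the lower mean at 7. The groups overlapped at all 15, against 5.78% of all tested probes whose groups did not overlap. The median absolute difference between groups was 0.49 over the 15 probes and 0.23 over all tested probes. The median absolute difference between sessions was 0.97 over the 15 probes and 0.45 over all tested probes. The first session holds more high-fertile and the later more subfertile bulls, so a session difference enters the group difference. Whether both vary together across probes was not tested.

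**Figure D1:**
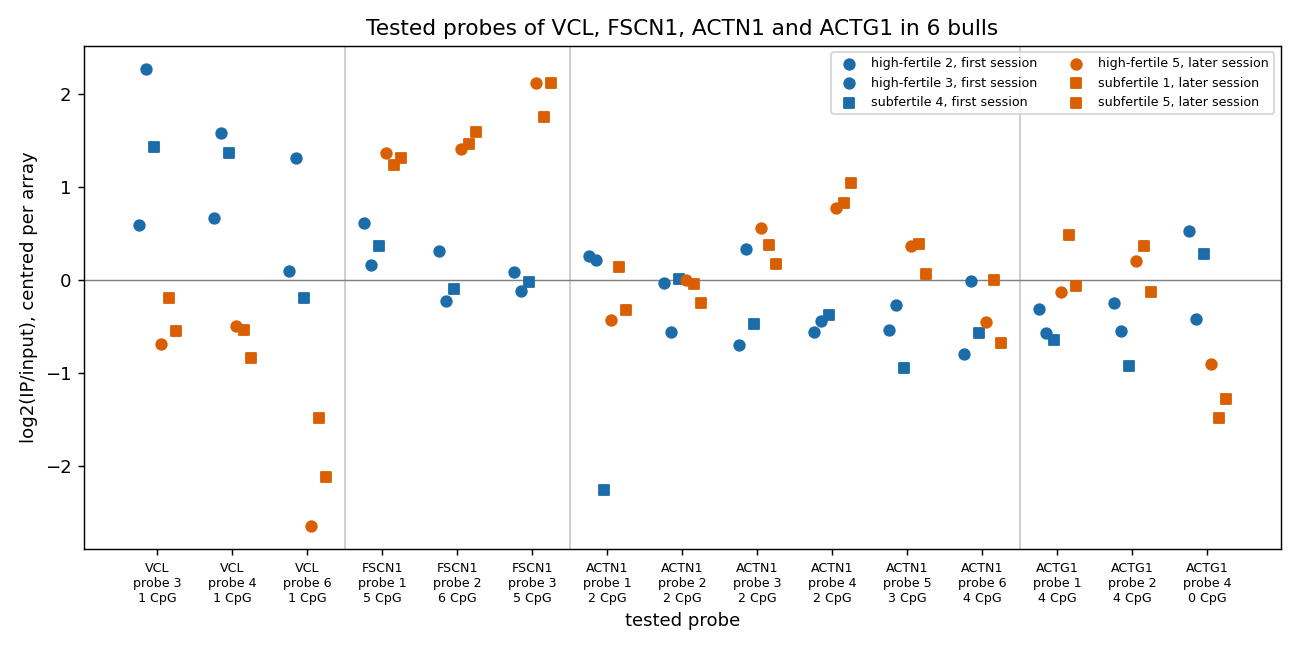
Values of log2(IP/input), centred per array, for the 15 tested probes in 6 bulls; within each probe the points run from left to right as HF2, HF3, SF4 (first session, blue) and HF5, SF1, SF5 (later session, orange), with circles for high-fertile and squares for subfertile bulls. Blue and orange points do not overlap at 11 probes, while circles and squares overlap at all 15. Of all tested probes, sessions do not overlap at 39.6% and groups at 5.78%.

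ACTG1, the actin gene itself, lay slightly below the array median in every bull and parted neither groups nor sessions. Its mean over 3 tested probes was -0.0090, -0.51 and -0.27 in HF2, HF3 and HF5 and -0.21, -0.43 and -0.49 in SF1, SF4 and SF5. The groups overlapped, at -0.26 ± 0.25 (SD, n = 3) in high-fertile and -0.38 ± 0.15 (SD, n = 3) in subfertile bulls. High-fertile minus subfertile was 0.11 (SE 0.22, 95% interval -0.39 to 0.61), 0.12 (SE 0.21) with the session as a block, 0.17 within the first session and 0.08 within the later one.

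The flat mean of ACTG1 covered probes that moved apart. Probe 1, with 4 CpGs, read -0.31, -0.57 and -0.13 in HF2, HF3 and HF5 and 0.49, -0.64 and -0.069 in SF1, SF4 and SF5. Probe 2, also with 4 CpGs, read -0.25, -0.55 and 0.21 in HF2, HF3 and HF5 and 0.37, -0.92 and -0.12 in SF1, SF4 and SF5. At both, all 3 bulls of the later session lay above all 3 of the first, but the sessions overlapped with arrays centred on the tested probes. Probe 4, the only tested member without a CpG, ran the other way: 0.53, -0.41 and -0.90 in HF2, HF3 and HF5 and -1.48, 0.28 and -1.28 in SF1, SF4 and SF5. Later minus first, with the group as a term, was 0.58 (SE 0.28) at probe 1, 0.83 (SE 0.27) at probe 2 and -1.31 (SE 0.33) at probe 4. Probe 1 gave 0.34 with arrays centred on the tested probes and 0.31 without SF4, and probe 4 gave -0.40 with normexp, under which its sessions overlapped. IP was not well above background at probe 4 in HF2 and HF5, so only 1 of 3 high-fertile bulls measured it. The gene's own session difference of 0.03 (SE 0.21) has no stable sign: it was -0.21 with arrays centred on the tested probes and 0.35 with normexp background correction.

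ACTN1, the cross-linker, had overlapping groups in its mean. It was -0.39, -0.12 and 0.14 in HF2, HF3 and HF5 and 0.28, -0.77 and 0.0043 in SF1, SF4 and SF5, over 6 probes. The subfertile bulls held both the highest and the lowest value, and all 3 later bulls lay above all 3 first-session bulls, though not with arrays centred on the tested probes, where HF3 passed SF5. Later minus first was 0.65 (SE 0.21), 0.41 with arrays centred on the tested probes, 0.32 with no filter, 0.39 without SF4 and 0.91 without HF5. Group means were -0.13 ± 0.27 (SD, n = 3) in high-fertile and -0.16 ± 0.54 (SD, n = 3) in subfertile bulls, a difference of 0.03 (SE 0.30, 95% interval -0.65 to 0.72). With the session as a block it was 0.25 (SE 0.21, 95% interval -0.21 to 0.71), from 0.51 within the first session and -0.0075 within the later one.

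Among the ACTN1 probes, 3, 4 and 5 start 20 bp apart and overlap. Probe 3 read -0.70, 0.34 and 0.56 in HF2, HF3 and HF5 and 0.38, -0.48 and 0.17 in SF1, SF4 and SF5. Probe 4 read -0.56, -0.44 and 0.77 in HF2, HF3 and HF5 and 0.83, -0.37 and 1.04 in SF1, SF4 and SF5. Probe 5 read -0.54, -0.26 and 0.37 in HF2, HF3 and HF5 and 0.39, -0.94 and 0.063 in SF1, SF4 and SF5. Probes 4 and 5 kept the sessions apart, and at probe 3 HF3 of the first session lay within the later bulls. Later minus first was 0.75, 1.29 and 0.97 at the 3 probes (SE 0.32, 0.23 and 0.26).

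At the other ACTN1 probes the sessions overlapped, as they did at probe 3. Probe 2 stayed near the array median, at -0.035, -0.56 and -0.0040 in HF2, HF3 and HF5 and -0.046, 0.013 and -0.25 in SF1, SF4 and SF5. Probe 6 read -0.79, -0.0059 and -0.45 in HF2, HF3 and HF5 and 0.0039, -0.57 and -0.68 in SF1, SF4 and SF5, with IP not well above background in HF2. Both mixed the sessions, with later minus first at 0.07 and 0.09; each turned negative, to -0.17 and -0.15, with arrays centred on the tested probes. Probe 1 read 0.25, 0.22 and -0.43 in HF2, HF3 and HF5 and 0.14, -2.26 and -0.33 in SF1, SF4 and SF5. Its low value came from SF4, where IP was not well above background, as it was not in HF2. Later minus first at probe 1 was 0.75 (SE 0.55), close to that of probe 3, but -0.67 without SF4, 2.17 without HF5 and 0.10 with normexp. High-fertile minus subfertile at probe 1 was 0.83 (SE 0.56, 95% interval -0.42 to 2.07), and 0.11 without SF4.

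FSCN1, the bundling gene, lay well above the array median in the later session and close to it in the first. Among 737 gene names with at least 3 tested probes, its mean stood at percentile 87.7 in the first session and 99.9 in the later. Its mean over 3 probes was 0.34, -0.059 and 1.63 in HF2, HF3 and HF5 and 1.48, 0.083 and 1.68 in SF1, SF4 and SF5. The 3 later bulls lay far above the 3 first-session bulls, and each group held bulls of both kinds. Group means were 0.64 ± 0.89 (SD, n = 3) in high-fertile and 1.08 ± 0.87 (SD, n = 3) in subfertile bulls. High-fertile minus subfertile was -0.44 (SE 0.52, 95% interval -1.61 to 0.72).

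That group difference was smaller in size when bulls of the same session were compared. With the session as a block it was 0.05 (SE 0.19, 95% interval -0.38 to 0.48), an interval inside the one without the block. It was 0.06 within the first session and 0.05 within the later one. HF5 and SF5, scanned on the same date and slide, averaged 1.63 and 1.68, and SF1, on the slide of the first-session bulls, 1.48. Later minus first was 1.50 (SE 0.19), the 11th largest in size of 737 gene regions, a region being the mean over at least 3 tested probes of a gene name. Leaving out a bull moved the group difference from -0.94, without HF5 or SF4, to -0.10, without HF3.

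All 3 FSCN1 probes gave the same picture in different strength. Probe 1 read 0.61, 0.16 and 1.37 in HF2, HF3 and HF5 and 1.23, 0.37 and 1.32 in SF1, SF4 and SF5. Probe 2 read 0.31, -0.22 and 1.41 in HF2, HF3 and HF5 and 1.46, -0.094 and 1.60 in SF1, SF4 and SF5. Probe 3 read 0.089, -0.12 and 2.12 in HF2, HF3 and HF5 and 1.75, -0.021 and 2.12 in SF1, SF4 and SF5. The later bulls were the higher ones at each, by 0.95 (SE 0.25), 1.50 (SE 0.26) and 2.05 (SE 0.25) from probe 1 to probe 3.

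VCL, the anchoring gene, ran opposite to FSCN1. Its mean over 3 probes was 0.45, 1.72 and -1.28 in HF2, HF3 and HF5 and -0.74, 0.87 and -1.17 in SF1, SF4 and SF5. All first-session bulls lay above the array median and all later bulls below it, again with both groups on either side. Group means were 0.30 ± 1.51 (SD, n = 3) in high-fertile and -0.35 ± 1.08 (SD, n = 3) in subfertile bulls. High-fertile minus subfertile was 0.65 (SE 0.74, 95% interval -1.03 to 2.32).

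Compared within sessions, VCL too lost its group difference. With the session as a block it was -0.05 (SE 0.33, 95% interval -0.79 to 0.69), from 0.22 within the first session and -0.32 within the later one. Later minus first was -2.10 (SE 0.33), the 3rd largest in size of 737 regions, a rank given only as a description. It was -0.91 with normexp background correction. With no filter on dim probes it was -1.36, beside a median of -0.82 over 2791 regions. The group difference was 1.43 without HF5 and 1.25 without SF4, and its sign turned, to -0.07, without HF3.

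The 3 tested VCL probes, each with 1 CpG, ordered the sessions the same way. Probe 3 read 0.59, 2.28 and -0.69 in HF2, HF3 and HF5 and -0.20, 1.44 and -0.55 in SF1, SF4 and SF5. Probe 4 read 0.67, 1.58 and -0.50 in HF2, HF3 and HF5 and -0.53, 1.37 and -0.84 in SF1, SF4 and SF5. Probe 6 read 0.096, 1.32 and -2.65 in HF2, HF3 and HF5 and -1.49, -0.19 and -2.12 in SF1, SF4 and SF5. Every later bull was below every first-session bull at each, with later minus first at -1.96, -1.84 and -2.49 (SE 0.44, 0.32 and 0.48), and at -1.04, -0.84 and -0.86 with normexp. At probe 6, IP was well above background in HF3, SF1 and SF5 only. Probe 5, left out for dim input in HF3, showed the same order of sessions, at 0.42, 3.15 and -0.56 in HF2, HF3 and HF5 and -0.39, 2.08 and -0.45 in SF1, SF4 and SF5. Its IP was well above background in only 2 of the 3 first-session bulls and in all 3 later bulls.

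**Figure D2:**
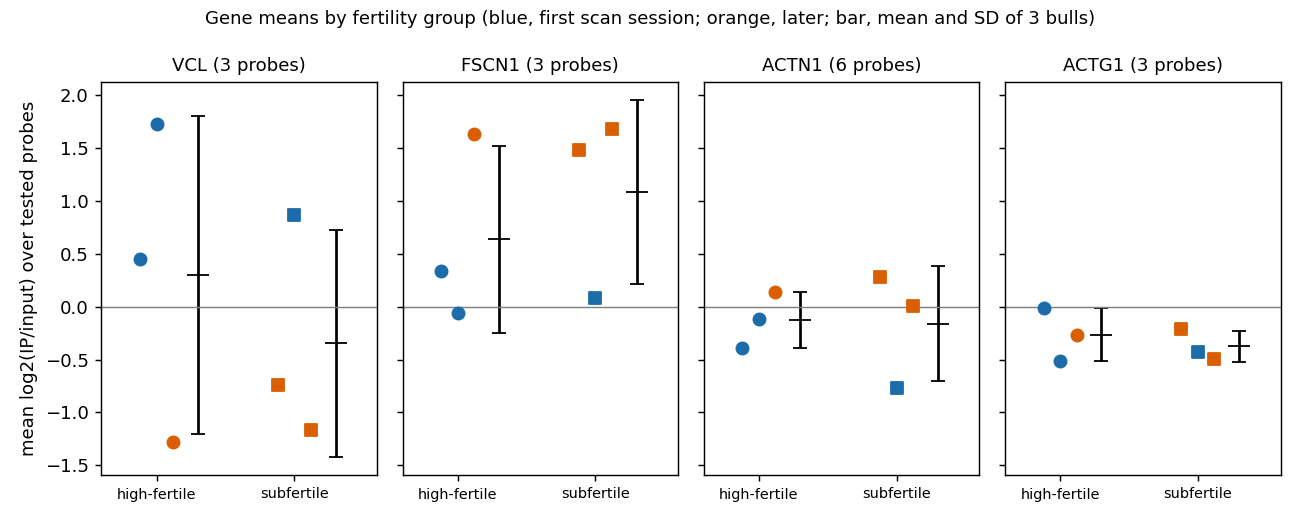
Mean log2(IP/input) over the tested probes of each gene, by fertility group; circles are high-fertile and squares subfertile bulls, blue the first and orange the later scan session, and the bar is the mean and SD of 3 bulls. Blue and orange points do not overlap for VCL, FSCN1 and ACTN1, by a narrow margin in ACTN1 that is lost with arrays centred on the tested probes, and they mix for ACTG1.

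Over the 4 genes, sessions did not overlap at 11 of 15 probes (9 with arrays centred on the tested probes), of which 7 were higher and 4 lower in the later session. The corresponding shares of all tested probes were 39.6% in all, 31.9% higher and 7.77% lower. With arrays centred on the tested probes, sessions did not overlap at 38248 of all 110686 tested probes. Session calls fell on 7 of the 15: 3 higher (FSCN1 probes 2 and 3 and ACTN1 probe 4) against 6.5% of all probes, and 4 lower (the VCL probes and ACTG1 probe 4) against 1.58%. These calls numbered 4 with arrays centred on the tested probes, beside 2934 of all 110686 tested probes. They numbered 1 with no filter (2930 of all 177440 probes) and 11 with normexp (33436 of 110686). Without HF5, SF1, SF4 or SF5 they numbered 0, as over all tested probes.

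The channels behind the ratio differed between sessions in another way in VCL than in FSCN1. Each channel is given as log2 over the array's median of that channel, averaged over a gene's tested probes. For FSCN1, input was 2.47, 3.13 and 3.49 in HF2, HF3 and SF4 and 1.31, 1.32 and 1.66 in HF5, SF1 and SF5. Its IP was 3.0, 3.13 and 3.61 in the first session and 3.02, 2.86 and 3.55 in the later one. Later minus first was -1.60 in input, near -1.53, -1.60 and -1.67 at probes 1, 2 and 3. In IP it averaged -0.10, from -0.59 at probe 1 and -0.09 at probe 2 to 0.37 at probe 3. Over all tested probes the median was -0.58 in input and -0.32 in IP.

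For VCL the wider step was in IP. Its IP was 1.17, 1.54 and 1.36 in HF2, HF3 and SF4 and -1.17, -0.14 and -0.64 in HF5, SF1 and SF5. Its input was 0.52, -0.25 and 0.46 in the first session and 0.03, 0.54 and 0.32 in the later one, which overlap. Later minus first was -2.01 in IP, with -2.27, -2.14 and -1.61 at probes 3, 4 and 6. The input mean of 0.05 joined -0.38 at probe 3 and -0.32 at probe 4 with 0.86 at probe 6. In ACTN1 input was lower by 0.76 and IP by 0.17 in the later session, the IP mean joining -0.87 at probe 2 with 0.37 at probe 4. In ACTG1 both channels were lower in the later session, input by 0.97 and IP by 0.96 on average, but no probe had equal steps. Later minus first in input was -1.06, -1.08 and -0.76 at probes 1, 2 and 4. In IP it was -0.44, -0.34 and -2.095, the last at the probe where IP was not well above background in HF2 and HF5.

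The session difference of a probe also varied with its CpG count. Over all tested probes the median of later minus first was -0.07 at probes without a CpG, 0.17 with 1 CpG, 0.26 with 2, 0.31 with 3, 0.32 with 4, 0.33 with 5, 0.34 with 6 and 0.33 with 7 or more. VCL and ACTG1 probe 4 have few CpGs and FSCN1 has many, so each member was set against tested probes with the same count. The VCL probes stood at percentiles 0.886, 1.06 and 0.315 of the 15236 probes with 1 CpG. FSCN1 probes 1, 2 and 3 stood at percentiles 87.0, 98.1 and 99.9 of their classes, and ACTN1 probes 3, 4 and 5 at 80.5, 96.3 and 88.8. ACTN1 probes 1, 2 and 6 stood at 80.58, 36.35 and 33.95, and ACTG1 probes 1 and 2 at 68.33 and 82.51. ACTG1 probe 4 stood at percentile 8.74 of the 4668 probes without a CpG. The members' session differences were thus far from those of most probes of equal CpG count for VCL and for FSCN1 probes 2 and 3. These places are a description only, as the genes may have been chosen on such differences. What part signal strength, IP yield or CpG count has in the session differences was not tested.

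**Figure D3:**
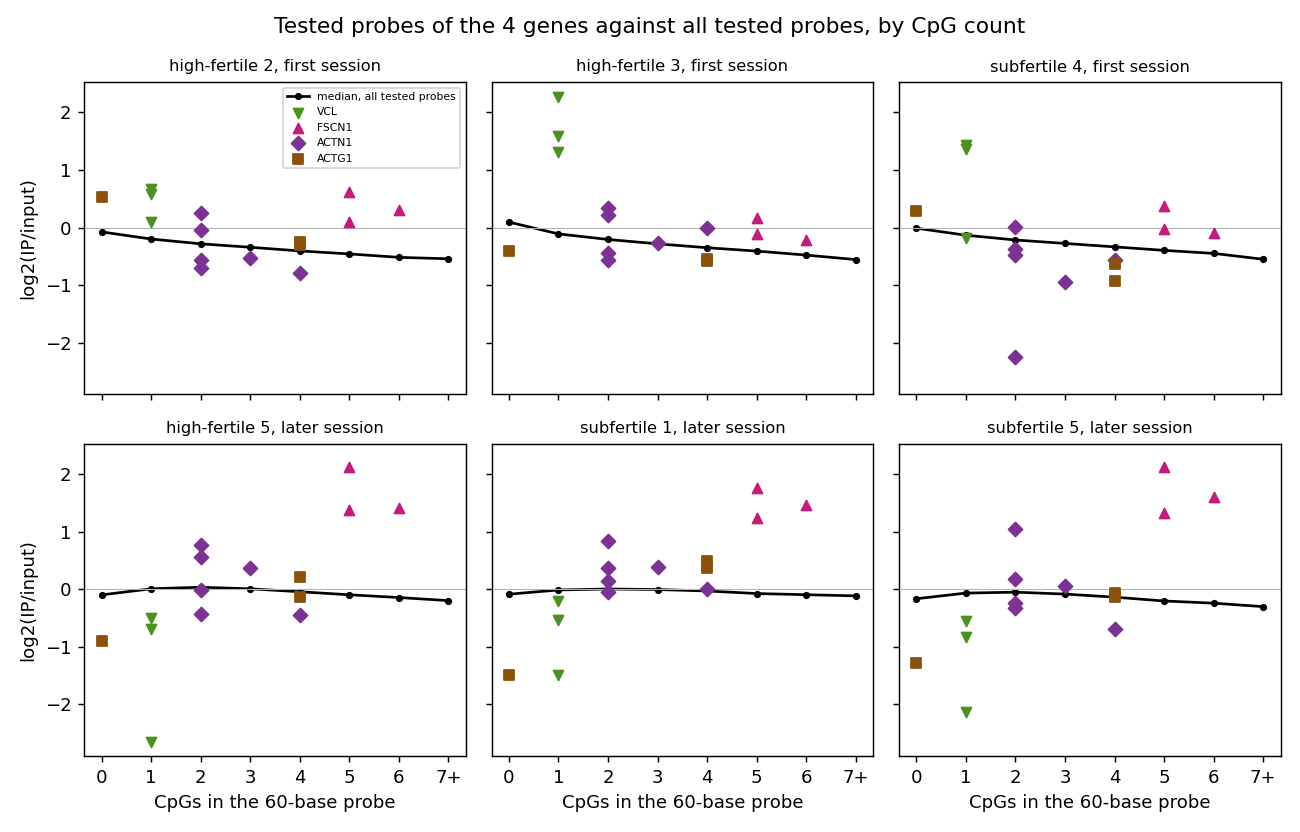
Log2(IP/input) of the 15 tested probes (coloured) against the number of CpGs in the 60-base probe, with the median of all tested probes of that count (black line), in a panel for each bull. All VCL points but probe 6 in SF4 lie above the line in the first-session panels and all lie below it in the later ones. FSCN1 lies above the line in every panel, from -0.22 to 0.61 in the first session and from 1.23 to 2.12 in the later.

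Unnamed probes overlap some of the named ones and read the same stretches. Across the 3 FSCN1 probes, 12 unnamed probes lie within the same stretch, 3 of them second spots of the same sequences. They ran from -0.49 to 0.68 in first-session bulls and from 1.08 to 2.18 in later bulls. All 12 kept the sessions apart, none kept the groups apart, and later minus first ran from 0.81 to 2.07. Of all tested probes, 39.6% kept the sessions apart and 5.78% the groups. The second spots differed from the named spots by 0.16, 0.30 and 0.11 on average over the bulls for probes 1, 2 and 3, and by 0.58 at most.

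Over ACTN1 probes 3 to 5, 11 unnamed probes gave later minus first of 0.78 to 1.37, and all 11 kept the sessions apart. Over ACTN1 probe 6, the next named probe along, 9 unnamed probes gave -0.27 to 0.55, and none did. Over ACTG1 probe 2, 15 tested unnamed probes gave 0.36 to 2.21, and 14 kept the sessions apart. With arrays centred on the tested probes these counts were 12 of 12 over FSCN1, 10 of 11 and 1 of 9 over the ACTN1 stretches and 13 of 15 over ACTG1. Of all tested probes, 39.6% kept the sessions apart, and 38248 of 110686 did so with that centring. These overlapping probes share DNA fragments and are not independent of the named ones.

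**Figure D4:**
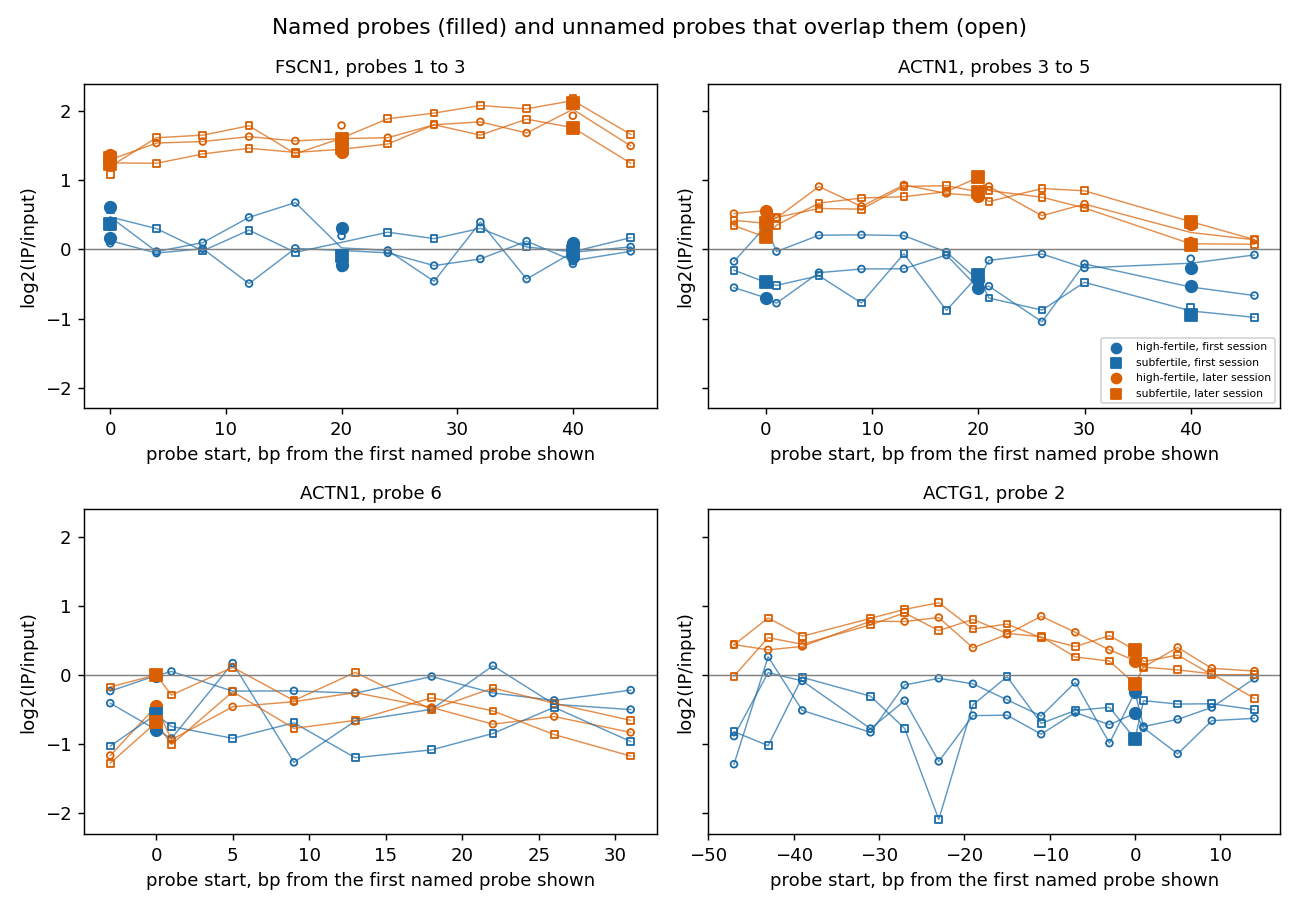
Log2(IP/input) of named probes (filled) and of the unnamed probes overlapping them (open) against probe start in bp from the first named probe shown; lines join a bull's values, blue for the first and orange for the later scan session, circles for high-fertile and squares for subfertile bulls. The sessions stand apart over FSCN1, at the 11 unnamed probes over ACTN1 probes 3 to 5 and at 14 of 15 unnamed probes over ACTG1 probe 2, and mix over ACTN1 probe 6. They stand apart at 39.6% of all tested probes.

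Gene regions with the profile over the 6 bulls nearest to each gene were found by the root mean square difference in log2(IP/input) over the 737 regions. For VCL they were MAP4K3 (0.30), SMG1 (0.32) and NEBL (0.32), against a median of 1.24 over the other regions. For FSCN1 they were ZBTB7A (0.48), VPS37B (0.52) and GAS8 (0.55), against 1.31; its nearest region was farther off than that of any of the other 3 genes. For ACTN1 they were MYOD1 (0.13), TMPPE (0.16) and BMPER (0.17), against 0.44. For ACTG1 they were IRX4 (0.06), ING1 (0.11) and RPA2 (0.12), against 0.43. The regions nearest to VCL were picked for a like profile, so their order of sessions follows from that choice. MAP4K3 averaged 1.0 in the first and -0.66 in the later session, and NEBL 0.88 and -0.97.

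Other actin genes were counted from 5 lists. None of their tested probes was called between groups, as none of all 110686 was. Among actin isoforms and testis actin-like proteins, 5 of 9 tested probes were higher in high-fertile bulls and 4 lower, with a median difference of 0.10, and no gene reached 3 tested probes. Among cross-linkers and bundlers, 3 of 9 probes were higher and 6 lower (median -0.05), and SPTBN1, a spectrin that links filaments to the membrane skeleton, differed by 0.04 (SE 0.21). Among actin assembly and turnover genes, 7 of 16 probes were higher and 9 lower (median -0.03). Among tropomyosins, myosins and membrane linkers, 4 of 6 were higher and 2 lower (median 0.23). The median over all tested probes was -0.09.

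Focal adhesion and adherens junction linkers, the group to which VCL belongs, had 13 of 22 probes higher in high-fertile bulls and 9 lower (median 0.10). LPXN, the adhesion adaptor leupaxin, was the widest of its 3 measured regions: 0.0079 in high-fertile and -0.35 in subfertile bulls, a difference of 0.36 (SE 0.22, 95% interval -0.14 to 0.86). Its groups did not overlap, as at 2.99% of all regions, and it was not called; its session difference was -0.04. ILK, the integrin-linked kinase, differed by 0.15 (SE 0.25) and CTNNA2, an alpha-catenin, by -0.03 (SE 0.22).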

How the data were processed

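Deposited spot intensities of 6 arrays came, per the file headers, from Agilent Feature Extraction 10.7.3.1, which had them background-subtracted, detrended and dye-normalized linearly. SF1's header names a CGH protocol, the others ChIP. The deposited log10 ratio is IP over input, and the deposited series table holds it on the log2 scale, uncentred; both were checked against each other at 177439 probes. Gene names stand in the files of HF2, HF3 and SF4 only; probe names and sequences are the same on every row of all 6 files, so names were carried over by row. The 4 symbols each matched 1 gene of a RefSeq table (buffalo assembly NDDB_SH_1, used for names only).

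Here log2(IP/input) was taken from processed signals and centred on each array's median over non-control probes. Probes were tested with input well above background on 6 arrays and no non-uniformity flag (110686). Tests of groups and sessions used limma 3.58.1 under R 4.3.3 (2-sided, Benjamini-Hochberg over all features, threshold 0.05; "called" means an adjusted p under it), after a check on simulated data. Gene regions average at least 3 tested probes. SE and 95% intervals come from these fits. Inside a session 1 group holds only 1 bull, and its spread is taken from the other bulls. Figures were drawn with matplotlib 3.10.9.

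Members, lists and tests were chosen with earlier results of these data known. Every member probe is accounted for. Sequences follow the rule stated beside them. The 3 nearest regions per gene and up to 3 measured regions per list, by size of group difference, are named. Alternatives were other filters, background correction, centring, the deposited ratio, session or slide as a block, single sessions and leaving out each bull.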

Additional observations from a re-analysis of the deposited data

How the results depend on the processing

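The number of probes or of regions called between groups was 0 in every alternative but the later session alone, with 34 probes and 4 regions; there HF5 stood alone against SF1 and SF5. Leaving out a bull gave 1126 to 12593 probes at an unadjusted p under 0.05 (limma). Session calls, 8941 as reported, were 2930 with no filter on dim probes, 33436 with normexp background correction and 2934 with centring on tested probes, and ran from 0 to 20318 when a bull was left out; the cause was not tested, beyond fewer arrays in the last. With no filter 11.5% of the called probes were higher in the later session.

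Later minus first kept its sign for VCL, FSCN1 and ACTN1. VCL moved to -1.36 with no filter and -0.91 with normexp (-2.37 to -1.79 leaving out a bull), FSCN1 to 1.26 with centring on tested probes (1.41 to 1.58), and ACTN1 to 0.32 with no filter (0.39 to 0.91). ACTG1 moved to 0.35 with normexp and -0.21 with centring on tested probes (-0.07 to 0.15).

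Group differences moved by more than 1 SD of the bulls only for ACTN1, 0.51 in the first session alone, and ACTG1, 0.36 with no filter. Normexp turned ACTN1 to -0.19 and ACTG1 to -0.08. Leaving out a bull gave -0.07 to 1.43 for VCL, -0.94 to -0.10 for FSCN1, -0.27 to 0.26 for ACTN1 and -0.02 to 0.24 for ACTG1. Of 255 alternatives for single probes, 250 stayed within 1 SD. That SD, taken within groups, also holds the session difference, so staying within it does not mean that a sign held. FSCN1 probe 3 went from -0.59 to 0.09 with the session as a block, and VCL probe 6 from 0.85 to -0.01 without HF3. Alternatives with other filters or the slide as a block returned the main value at every probe. Blocking by session without the filter or with arrays centred on tested probes was added after the data were seen and called 0 probes (6523 and 4056 at an unadjusted p under 0.05, limma). IP below background at VCL probe 6, ACTG1 probe 4 and ACTN1 probes 1 and 6 limits those values. No paired analysis was made, because the labels number the bulls and give no pairing between the groups.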

Other observations

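Lists of imprinted genes and of leukocyte and epithelial genes were measured in the same bulls, as DNA enrichment and not as a test of cell type. None of their tested probes was called between groups, as none of all 110686 was. The lists held 22 probes of genes with a paternal mark, 31 with a maternal mark, 6 of leukocyte and 18 of epithelial genes. The median log2(IP/input) was -0.13 in the first and -0.07 in the later session for genes with a paternal mark, and -0.31 and 0.20 for those with a maternal mark. It was -0.36 and 0.07 for leukocyte genes and -0.38 and -0.21 for epithelial genes. PEG10 gave 21 of the 31 maternal-mark probes and RUNX3 5 of the 6 leukocyte probes, so those medians rest mostly on single genes. Only 2 of the 12 listed leukocyte genes had a tested probe. Later minus first was -0.11 for SGCE and 0.41 for IGF2R. RASGRF1 and RTL1, which carry a paternal mark, differed between groups by 0.07 (SE 0.20) and 0.01 (SE 0.21). PEG10 and IGF2R, with a maternal mark, differed by -0.18 (SE 0.27) and -0.19 (SE 0.24), and SGCE by -0.05 (SE 0.22). RUNX3, a leukocyte gene, differed by -0.11 (SE 0.29), and the epithelial genes DSP and ESRP1 by -0.29 (SE 0.27) and 0.03 (SE 0.21). PEG10 and RUNX3 were called between sessions, higher in the later one by 0.59 and 0.70. Of all 737 regions, 153 were called between sessions, 103 of them higher, so nothing is read from these calls.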
